A study of Mus musculus with 6 samples.

Results

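The glycosyltransferases and sulfotransferases that build mucin-type O-glycans and cap the ends of glycan chains were described in RNA of mouse colon with chronic colitis and of control colon. Members were all genes whose symbol begins with Galnt or Galntl and a digit, C1galt, Gcnt, B3gnt, B3galt, B4galt, St3gal, St6gal (which takes in the St6galnac genes), Fut or Chst, with 1 pseudogene name left out. This gave 82 genes of 24421 gene rows. The name mucin-type covers most of them but not all: 6 Chst genes sulfate chondroitin chains, and B3galt6 and B4galt7 build the linker of proteoglycans. The DSS group held 3 colon samples from C57BL/6 mice with chronic colitis caused by dextran sulfate sodium (DSS), an agent toxic to the gut lining. The control group held 3 colon samples from C57BL/6 mice, and all 6 samples carried the same age label of 7 weeks. The dose, the number of cycles and the time of sampling are not stated in the labels, and no label ties the samples to individual mice. The p-values therefore cover only the spread among these libraries, which may be technical. The wider study also profiled the H3K27ac histone mark, which was not analysed here.

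Mucin-type O-glycans begin in the Golgi when a polypeptide GalNAc transferase of the Galnt family attaches N-acetylgalactosamine (GalNAc) to serine or threonine. C1galt1, with its chaperone C1galt1c1, adds galactose to make core 1, the Gcnt enzymes add a GlcNAc branch to make core 2 or core 4, and B3gnt6 makes core 3, the core that is abundant on colonic mucin. B3gnt, B4galt and B3galt enzymes then lengthen the chain, and sialyltransferases (St3gal, St6gal, St6galnac), fucosyltransferases (Fut) and sulfotransferases (Chst) cap it. These glycans protect the mucus layer from bacterial proteases, and on leukocytes and vessels the same caps form ligands of selectins.

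Levels are the deposited FPKM values, scaled to transcript length and to the fragments sequenced. The FPKM values of a sample summed to between 609544 and 678076, and between 11849 and 12543 genes reached 1 FPKM. Depth is unknown, so no interval for counting error is given. A listed 0 can be a failed estimate, because the housekeeping gene Gapdh stood at 0 in DSS 1 and at 36.1 FPKM in DSS 3. Markers of colonic epithelium were found in every sample, some of them at lower levels in DSS, and the samples of a group did not resemble each other equally. Hoxb13, a homeobox gene of the distal colon, had 183, 0.472 and 16.1 FPKM in DSS 1, 2 and 3, against 129, 229 and 278 FPKM in control 1, 2 and 3. Hoxd13, of the same region, had 14.2, 0.0586 and 0.0866 FPKM in the DSS samples, against 16.2, 36.9 and 25.5 FPKM in the controls. DSS 1 thus stood near the controls in these genes and DSS 2 and DSS 3 far below them. The summed level of 6 B and plasma cell markers was 2639, 545 and 131 FPKM in DSS 1, 2 and 3, against 523 to 731 FPKM in control colon. All 7 neutrophil markers were called higher, with a summed level of 4078 to 6959.6 FPKM in DSS and 7.72 to 30.7 FPKM in control colon. Of 6 pan-epithelial markers, Krt8 and Krt19 were called lower, and the summed level of the 6 was 4203 to 5809 FPKM in DSS, against 8000.35 to 11317 FPKM in control colon, without overlap. In bulk tissue, fewer cells of a type and less RNA per cell cannot be told apart. The part of these cell types, of DSS 1 or of the stretch of colon sampled in the results that follow was not tested. This holds also where values are given beside a result.

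Of the 82 enzyme genes 59 reached 1 FPKM in at least 3 samples and were tested, and 6 passed the threshold, an adjusted p under 0.05 (limma on log2(FPKM + 1), Benjamini-Hochberg over 12348 tested genes). Across all tested genes 8.9% passed, so the share among the enzymes, 10.2%, was close to the background. St3gal4, B3gnt2, Fut9 and B3galt2 fell, 4 of 59 where 2.56% of all tested genes were lower, and Galnt12 and St3gal1 rose, 2 of 59 where 6.34% of all tested genes were higher. The median log2 fold change was -0.04 over the 59 enzymes and 0.13 over all tested genes. That all-gene median moved to -0.02 under upper-quartile scaling, where calls over all genes split into 505 higher and 536 lower, against 783 higher and 316 lower without scaling. At an unadjusted p under 0.05 there were 22 enzyme genes, or 37.3%, beside 28.3% of all tested genes. The DSS and control values did not overlap for 24 of the 59, which is 40.7% beside 35.1% of all tested genes. Of these, 10 were higher in DSS, beside 25.6% of all tested genes, and 14 were lower, beside 9.51%. Members entered the test through the group in which they were high, so these counts describe the tested genes and not the whole family.

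**Figure D1:**
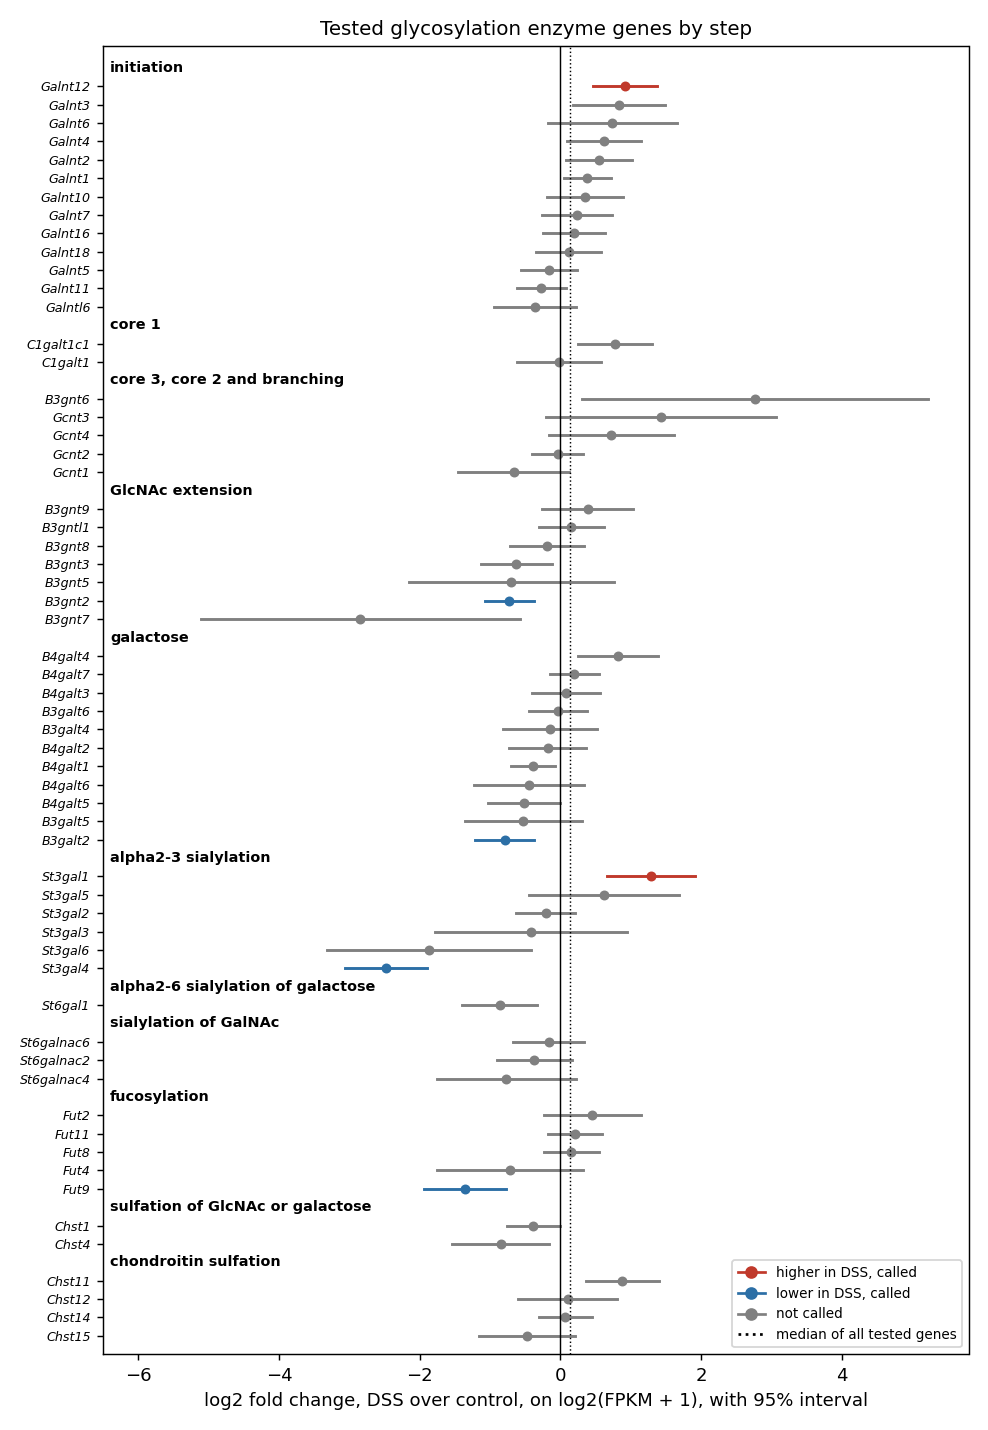
Log2 fold change of DSS over control for the 59 tested enzyme genes, by step, on the log2(FPKM + 1) scale; bars are 95% intervals from limma, red and blue mark the 2 genes called higher and the 4 called lower, and the dotted line is the median of all tested genes. St3gal4 lies lowest among the called genes at -2.48, and the widest bars belong to B3gnt6 and B3gnt7.

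The largest called change among the enzymes was in St3gal4, which transfers sialic acid in alpha2-3 linkage onto galactose at the end of N-acetyllactosamine chains. St3gal4 had 57.4, 36.4 and 67.5 FPKM in DSS 1, 2 and 3, against 239, 331 and 326 FPKM in control 1, 2 and 3. Every DSS sample lay under every control, and DSS 1 lay between DSS 2 and DSS 3. In DSS 1 Hoxb13 was within the control range and Hoxd13 was under every control. The part of the stretch of colon in St3gal4 was not tested. The St3gal4 means were 53.8 ± 15.9 FPKM (DSS) and 299 ± 51.5 FPKM (control) (SD, n = 3 each), a log2 fold change of -2.48 ± 0.25 (SE, adjusted p = 0.00193, limma). It kept its call in all 15 alternative settings, with adjusted p between 0.000941 and 0.0179. The pan-epithelial sum was also lower in DSS, and 3 of 7 colonocyte markers fell: Car4 had 395, 139 and 218 FPKM in DSS 1, 2 and 3, against 1735, 1604 and 1648 FPKM in control 1, 2 and 3. Aqp8 was at 186 to 268 FPKM in DSS and 1252 to 1922 FPKM in control colon, and Slc26a3 at 179 to 183 FPKM in DSS and 500.5 to 927 FPKM in control colon. Their log2 fold changes were -2.86, -2.68 and -1.94 (adjusted p = 0.00440, 0.000821 and 0.00305, limma), with DSS 1 as low as the other DSS samples in Slc26a3 and below every control in all 3. The other colonocyte markers, Car1, Krt20, Ceacam1 and Slc9a3, were not called. The summed level of the 7 markers overlapped, at 3535, 12045 and 7895 FPKM in DSS 1, 2 and 3. In control 1, 2 and 3 it was 10414, 7247 and 7571 FPKM. The uncalled markers together thus stood above every control in DSS 2 and DSS 3, but not in DSS 1. The part of these cells in the fall of St3gal4 was not tested. St3gal4 lies on chromosome 9, 35046576 to 35119268, minus strand, in GRCm38, and shares exon bases with a noncoding transcript on the other strand, and reads from the shared bases cannot be told apart without strand.

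St3gal6, which acts on the same lactosamine ends, was also low in DSS but did not pass. It shares exon bases with the coding gene Dcbld2 on the other strand, and reads from the shared bases cannot be told apart without strand. St3gal6 had 100.4, 15.1 and 42.4 FPKM in DSS 1, 2 and 3, against 129, 169 and 156 FPKM in control 1, 2 and 3. The groups did not overlap, but DSS 1 lay near the controls (log2 fold change -1.87 ± 0.61 SE, adjusted p = 0.106, limma). Without DSS 1 it passed, with a log2 fold change of -2.52 and adjusted p = 0.0111, the lowest of 15 settings that ranged up to 0.253. The stretch before a RefSeq start is shown for each of these enzymes. They are the most abundant alpha2-3 sialyltransferases of the tissue and were both lower in DSS. Capitals mark matches, on either strand, to the GC box (GGGCGG) and the CCAAT box. Bases come from the RefSeq promoter table of GRCm38.p6, 5′ to 3′ on the gene's strand. The RefSeq start used for St3gal4 lies inside the gene as GENCODE places it (35046576 to 35119268, minus strand). Its stretch is therefore not the one before the outermost GENCODE start. It is cut before the first exon base of a coding gene within the window.
St3gal4, chr9:35116874-35117114, minus strand: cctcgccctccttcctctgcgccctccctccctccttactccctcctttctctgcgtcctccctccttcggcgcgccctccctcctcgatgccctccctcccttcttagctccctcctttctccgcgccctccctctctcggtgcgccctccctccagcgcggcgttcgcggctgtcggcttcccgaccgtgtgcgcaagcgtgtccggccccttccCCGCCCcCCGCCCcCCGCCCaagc
St3gal6, chr16:58524254-58524503, minus strand: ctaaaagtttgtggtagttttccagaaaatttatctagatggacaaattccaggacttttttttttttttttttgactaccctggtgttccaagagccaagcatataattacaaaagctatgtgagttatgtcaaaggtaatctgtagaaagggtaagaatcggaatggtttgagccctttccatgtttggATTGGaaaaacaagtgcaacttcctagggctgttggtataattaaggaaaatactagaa
The St3gal4 window held 3 GC boxes in a row, within 33 bases of that internal RefSeq start. The St3gal6 window held 1 CCAAT box and no GC box. A GC box was found in 32.7% and a CCAAT box in 33.8% of 32851 promoter windows of 250 bases. Neither window held the letters searched for a TATA box (TATAAA, in 12.4% of windows), a CDX site (TTTATNG, in 9.81%), an HNF4 site (CAAAGNNCA, in 5.49%) or an NF-kappaB site (in 1.41%), which says nothing about the factors.

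St3gal1 changed in the other direction. This enzyme places alpha2-3 sialic acid on the galactose of core 1, and it had 3.97, 5.16 and 4.35 FPKM in DSS 1, 2 and 3, against 2.34, 0.729 and 0.956 FPKM in control 1, 2 and 3. All DSS samples lay above all controls, at 4.49 ± 0.609 FPKM (DSS) and 1.34 ± 0.870 FPKM (control), with a log2 fold change of 1.29 ± 0.27 (SE, adjusted p = 0.0301, limma). The call was lost in 8 of 15 settings, among them upper-quartile scaling (adjusted p = 0.0545) and the fits without DSS 2, DSS 3, control 2 or control 3. Its adjusted p ranged from 0.0152 to 0.119 (limma). St3gal1 lies on chromosome 15, 67102875 to 67176830, minus strand. St3gal1 was a small part of the alpha2-3 family in every sample: it made up 2.03%, 7.44% and 2.97% of the summed FPKM of the 6 St3gal genes in the DSS samples and 0.587%, 0.139% and 0.186% in the controls. St3gal4 made up 29.4%, 52.4% and 46.1% in the DSS samples and 60.2%, 63.0% and 63.6% in the controls.

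The other St3gal genes did not pass. St3gal2, which also acts on core 1, had 2.29, 1.50 and 2.23 FPKM in DSS 1, 2 and 3 and 2.37, 2.30 and 2.72 FPKM in control colon, a narrow gap without overlap. St3gal3, which caps lactosamine chains of both linkage types, had 30.6, 5.65 and 27.8 FPKM in DSS 1, 2 and 3 and 23.7, 21.5 and 25.1 FPKM in control colon, so DSS 2 lay below every control and DSS 1 and DSS 3 above every control. St3gal5, the GM3 ganglioside synthase, had 0.763, 5.61 and 2.31 FPKM in DSS 1, 2 and 3 and 1.04, 0.929 and 1.70 FPKM in control colon. The groups overlapped for both of these genes.

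**Figure D2:**
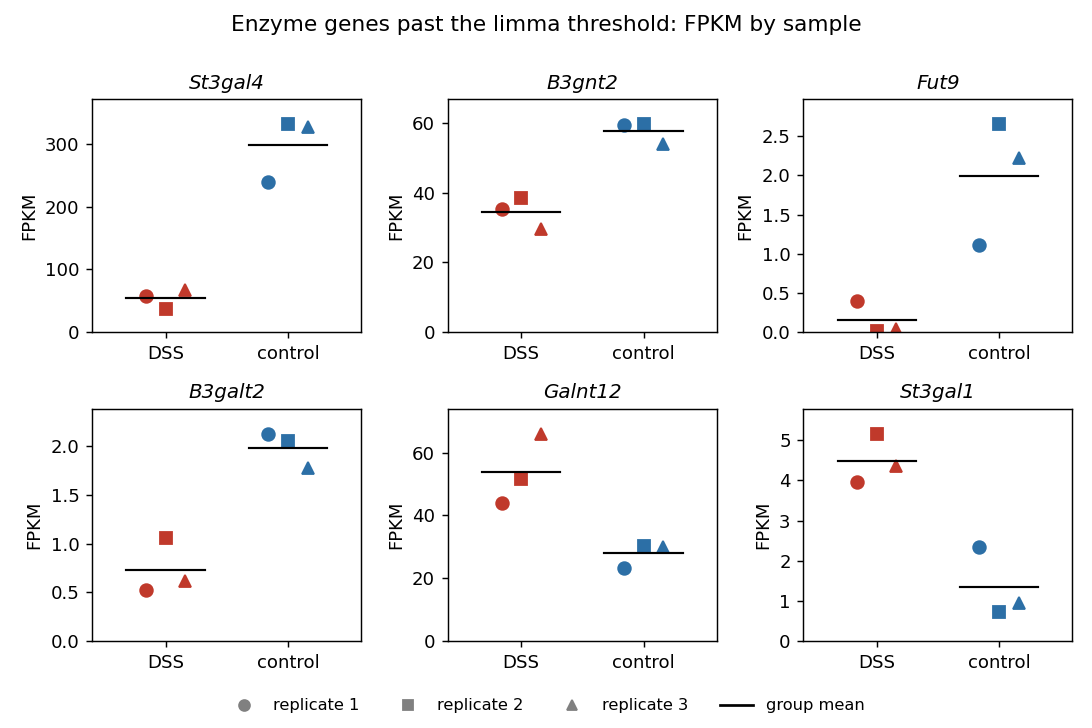
FPKM (linear axis from 0) of the 6 called enzyme genes in each sample, DSS in red and control in blue, with symbols for replicate numbers and lines for group means. Groups do not overlap in any panel; Fut9 and B3galt2 are plotted at levels of at most 2.65 FPKM, far under St3gal4.

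Among enzymes that lengthen chains with GlcNAc, B3gnt2 fell, and B3gnt3 and B3gnt7 were lower in DSS without overlap but did not pass. B3gnt2, the main polylactosamine synthase, had 35.3, 38.6 and 29.7 FPKM in DSS 1, 2 and 3, against 59.6, 59.6 and 53.9 FPKM in control 1, 2 and 3. The groups were well apart, at 34.5 ± 4.51 FPKM (DSS) and 57.7 ± 3.29 FPKM (control) (log2 fold change -0.73 ± 0.15 SE, adjusted p = 0.0275, limma). The call was lost without DSS 3 and without each control in turn, with adjusted p up to 0.113 over 15 settings. B3gnt2 lies on chromosome 11, 22759738 to 22860961, minus strand. It shares exon bases with a coding gene and a pseudogene on the same strand and with a transcript on the other strand. Reads from the shared bases cannot be told apart. B3gnt3, which extends core 1, had 104, 60.2 and 66.6 FPKM in DSS 1, 2 and 3, against 126, 111 and 111 FPKM in control colon, without overlap (adjusted p = 0.113, limma).

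B3gnt7, which adds GlcNAc to keratan-type and sulfated chains, varied most among the DSS samples in this step. It had 112, 6.27 and 16.6 FPKM in DSS 1, 2 and 3, against 157, 152 and 220.0 FPKM in control 1, 2 and 3. DSS 1 lay just under the controls and DSS 2 and DSS 3 far under them (log2 fold change -2.84 ± 0.94 SE, adjusted p = 0.114, limma). Without DSS 1 the log2 fold change was -3.95 with adjusted p = 0.00198, in a range up to 0.287 over 15 settings. B3gnt7 was 37.8%, 5.33% and 11.8% of the summed FPKM of this step in DSS 1, 2 and 3, against 42.5%, 42.5% and 51.8% in the controls. B3gnt5, which starts lacto-series glycolipids, had 38.2, 5.48 and 17.5 FPKM in DSS 1, 2 and 3 and 19.9, 28.6 and 31.3 FPKM in control colon, with overlap. B3gnt8, B3gnt9 and B3gntl1 ranged from 0.704 to 6.95 FPKM over all samples, with overlap between the groups in each.

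Enzymes that set the core structure gave no call, and the DSS samples lay far apart in B3gnt6 and Gcnt3. B3gnt6, the core 3 synthase, had 1.23, 20.7 and 39.6 FPKM in DSS 1, 2 and 3, against 0.626, 0.919 and 0.996 FPKM in control 1, 2 and 3. DSS 1 stood just above the controls and DSS 2 and DSS 3 more than an order of magnitude above it (log2 fold change 2.77 ± 1.02 SE, adjusted p = 0.139, limma). Without DSS 1 B3gnt6 was at 1 FPKM or more in too few samples to be tested. Gcnt3, the mucin-type branching enzyme for core 2 and core 4, had 22.9, 167 and 126 FPKM in DSS 1, 2 and 3, against 30.1, 29.3 and 26.5 FPKM in control 1, 2 and 3. DSS 1 was below every control and DSS 2 and DSS 3 were above every control (log2 fold change 1.43 ± 0.69 SE, adjusted p = 0.226, limma). Without DSS 1 Gcnt3 passed with a log2 fold change of 2.30 (adjusted p = 0.000579, in a range up to 0.467 over 15 settings).

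The leukocyte-type core 2 enzyme Gcnt1 had 17.9, 12.3 and 6.53 FPKM in DSS 1, 2 and 3 and 22.9, 18.7 and 15.1 FPKM in control colon, with overlap. Gcnt3 made up 40.1%, 77.5% and 67.8% of the summed FPKM of this step in DSS 1, 2 and 3, against 43.7%, 46.4% and 48.5% in the controls, and Gcnt1 made up 31.4%, 5.72% and 3.52% in the DSS samples, against 33.2%, 29.6% and 27.7% in the controls. In DSS 1 the makeup of the step was therefore near that of control colon. Gcnt2, which branches lactosamine chains to the I antigen, had 14.3, 11.9 and 12.3 FPKM in DSS 1, 2 and 3 and 14.1, 13.9 and 11.6 FPKM in control colon. Its log2 fold change of -0.04 had a 95% interval from -0.40 to 0.32. Gcnt4 reached 3.57 FPKM in DSS 2 and at most 1.26 FPKM in the other samples. The genes of core 1 overlapped or missed the threshold: C1galt1 had 38.0, 32.5 and 31.1 FPKM in DSS 1, 2 and 3 and 52.2, 26.7 and 28.9 FPKM in control colon (95% interval of the log2 fold change -0.62 to 0.58). Its chaperone C1galt1c1 had 87.7, 143 and 109 FPKM in DSS 1, 2 and 3, against 54.9, 80.4 and 60.7 FPKM in control 1, 2 and 3, without overlap (adjusted p = 0.0742, limma). C1galt1c1 passed without DSS 1 (adjusted p = 0.0319) and with the replicate number as a block (0.0381).

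**Figure D3:**
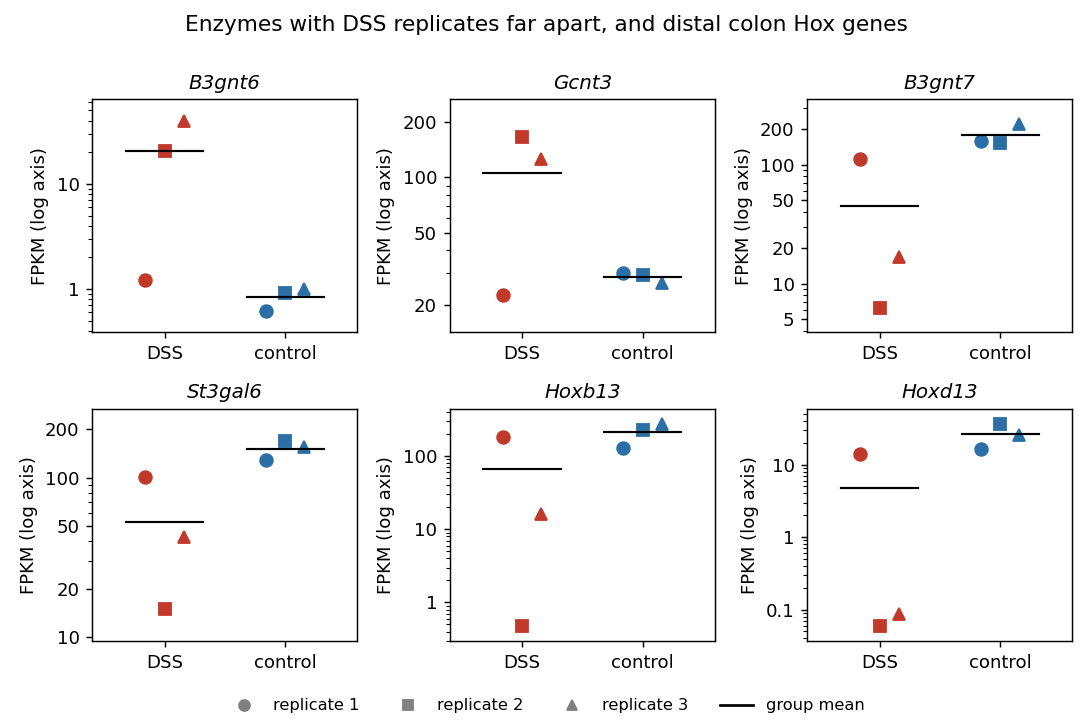
FPKM (log axes) of B3gnt6, Gcnt3, B3gnt7 and St3gal6 and of the distal colon genes Hoxb13 and Hoxd13 in each sample, DSS in red and control in blue, with symbols for replicate numbers and lines for group means. In every panel DSS 1 (circle) lies nearer the controls than DSS 2 and DSS 3 do; Gcnt3 is at 22.9 FPKM in DSS 1, against 26.5 to 30.1 FPKM in control colon.

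This pattern was not limited to a few genes. DSS 1 was the nearest of the 3 DSS samples to the control mean for 35 of the 59 tested enzymes, or 59.3%, against 43.5% of all tested genes. The median absolute log2 difference from the control mean over the enzymes came to 0.28 for DSS 1, 0.56 for DSS 2 and 0.55 for DSS 3. Over all tested genes the same medians were 0.29, 0.38 and 0.37. The fit without DSS 1, here and for single genes, is no separate support, because DSS 1 was picked out from these same values. In that fit 16 of 57 tested enzymes were called, where 13.0% of all tested genes were called. Of these, 7 were higher, where 8.1% of all tested genes were higher, and 9 were lower, where 4.86% were. Beside genes already named, B4galt4, Galnt3 and Galnt4 were called higher in that fit and B3gnt3, Fut4, St6gal1 and St6galnac4 were called lower. Hoxb13 and Hoxd13 stood apart in the same samples, and their part in the pattern was not tested.

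At the opening step of O-glycan synthesis, Galnt12 rose. Galnt12, a polypeptide GalNAc transferase, had 43.9, 51.6 and 66.0 FPKM in DSS 1, 2 and 3, against 23.4, 30.4 and 30.0 FPKM in control 1, 2 and 3. All DSS samples exceeded all controls, at 53.8 ± 11.2 FPKM (DSS) and 27.9 ± 3.95 FPKM (control) (log2 fold change 0.91 ± 0.19 SE, adjusted p = 0.0313, limma). The call was lost in 6 of 15 settings, without DSS 2, DSS 3 or any control and without the filter on low values, with adjusted p between 0.0157 and 0.104. Galnt12 lies on chromosome 4, 47091909 to 47123070, plus strand.

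No other Galnt gene passed. Of the 13 tested, Galnt12 included, 10 had a log2 fold change above 0. The median was 0.35 for the step, beside 0.13 over all tested genes. That all-gene median was -0.02 under upper-quartile scaling, where Galnt18 turned to -0.0133. The level was spread over many isoenzymes: Galnt7, Galnt12, Galnt4, Galnt3 and Galnt1 each made up between 8.23% and 23.1% of the summed FPKM of the family in every sample. Galnt7, which acts on peptides that already carry GalNAc, had 36.9, 49.3 and 58.4 FPKM in DSS 1, 2 and 3 and 33.1, 46.5 and 42.0 FPKM in control colon. Galnt4 had 30.9, 52.5 and 47.4 FPKM in DSS 1, 2 and 3, against 22.8, 30.3 and 29.7 FPKM in control colon, without overlap (adjusted p = 0.129, limma), and it shares exon bases with Poc1b. Galnt3 had 29.2, 42.9 and 49.4 FPKM in DSS 1, 2 and 3 and 31.7, 18.8 and 17.2 FPKM in control colon, where control 1 lay above DSS 1. Galnt1 was at 29.9 to 35.4 FPKM in DSS and 23.2 to 27.2 FPKM in control colon, and Galnt2 at 12.1 to 20.5 FPKM in DSS and 10.4 to 11.05 FPKM in control colon; neither overlapped or passed, and Galnt2 passed without DSS 2 (adjusted p = 0.0471, in a range up to 0.292, limma). Galnt11 was the tested member that lay wholly lower, at 7.98 to 9.51 FPKM in DSS and 9.66 to 11.2 FPKM in control colon. Galnt5, Galnt6, Galnt10, Galnt16, Galnt18 and Galntl6 overlapped between the groups.

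**Figure D4:**
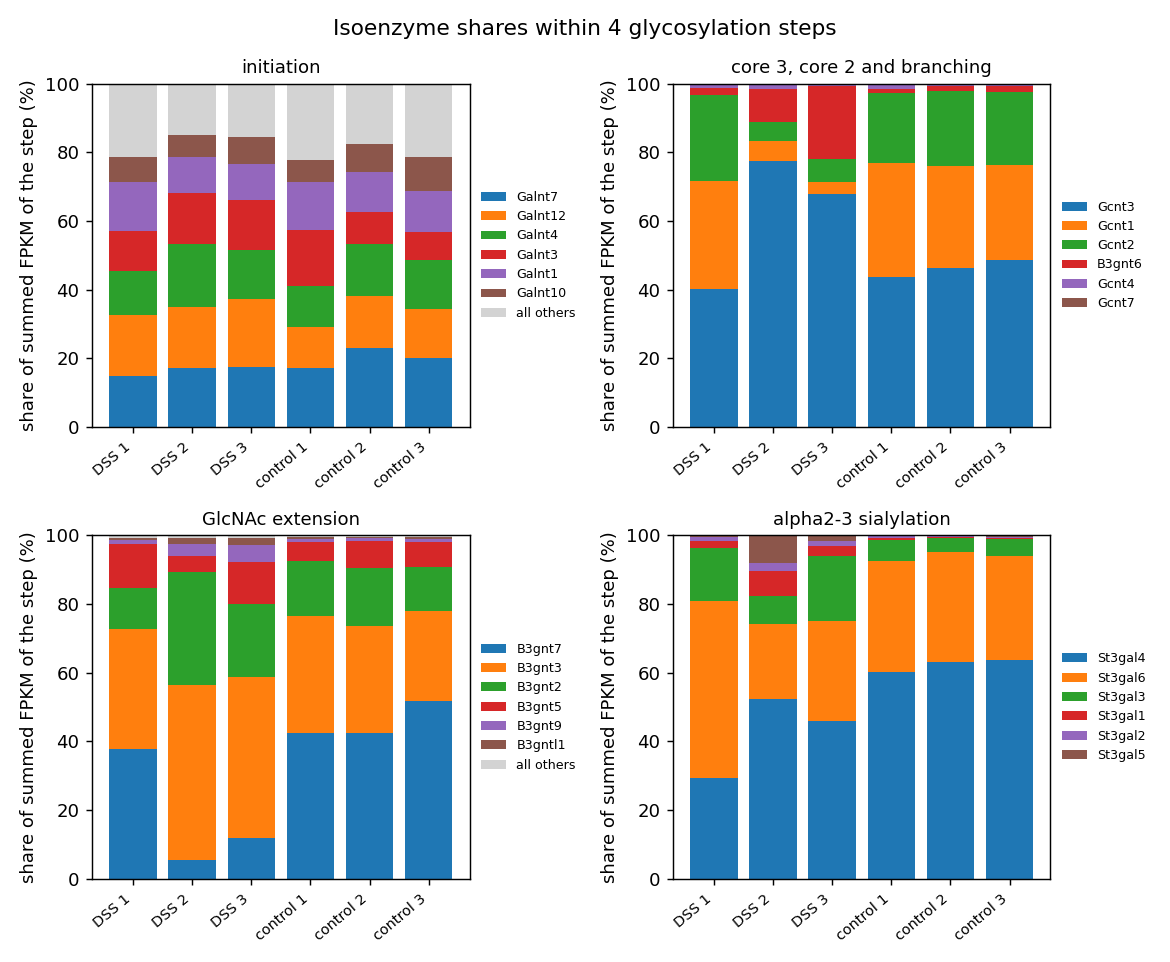
Share of each isoenzyme in the summed FPKM of its step (percent, stacked bars), in the 3 DSS samples and then the 3 controls, for initiation, core 3, core 2 and branching, GlcNAc extension and alpha2-3 sialylation. The Gcnt3 share is 77.5% in DSS 2 and 67.8% in DSS 3, against 40.1% in DSS 1 and 43.7% to 48.5% in control colon, while the initiation step has no enzyme above 23.1%.

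Of 11 tested galactosyltransferases 1 was called; the groups did not overlap for 5, beside 35.1% of all tested genes, and overlapped for 6. B3galt2, which adds galactose in beta1-3 linkage, was the member that fell, at 0.528, 1.05 and 0.622 FPKM in DSS 1, 2 and 3, against 2.12, 2.05 and 1.77 FPKM in control 1, 2 and 3. The groups were apart, at 0.734 ± 0.279 FPKM (DSS) and 1.98 ± 0.187 FPKM (control) (log2 fold change -0.79 ± 0.18 SE, adjusted p = 0.0382, limma), but the level was low and the call was lost in 7 of 15 settings, with adjusted p between 0.0289 and 0.132. Its lost calls included every fit without a control and those without DSS 1 or DSS 3. B3galt2 lies on chromosome 1, 143640664 to 143654614, plus strand, and shares exon bases with Cdc73 on the other strand, and reads from the shared bases cannot be told apart without strand.

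B3galt5, which builds type 1 chains, was the most abundant member of the step, at 112, 58.9 and 119 FPKM in DSS 1, 2 and 3 and 189, 89.5 and 140.5 FPKM in control colon, with overlap. B4galt1, the main lactosamine synthase, was lower without overlap, at 36.6, 36.1 and 34.1 FPKM in DSS 1, 2 and 3, against 47.2, 43.3 and 50.5 FPKM in control colon (adjusted p = 0.109, limma). B4galt4, which prefers sulfated GlcNAc, was higher without overlap, at 30.9, 41.8 and 56.9 FPKM in DSS 1, 2 and 3, against 19.6, 23.1 and 28.0 FPKM in control colon (adjusted p = 0.0789, limma). B4galt5, a lactosylceramide synthase, was at 6.42 to 11.3 FPKM in DSS and 11.4 to 14.9 FPKM in control colon, and its relative B4galt6 overlapped between the groups. The linker enzyme B4galt7 was at 6.39 to 7.55 FPKM in DSS and 5.84 to 6.28 FPKM in control colon, without overlap and with adjusted p = 0.425 (limma). B3galt4, B3galt6, B4galt2 and B4galt3 had log2 fold changes between -0.18 and 0.08.

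Enzymes that add alpha2-6 sialic acid gave no call. St6gal1, which caps lactosamine on N-glycans, had 15.2, 7.96 and 9.999 FPKM in DSS 1, 2 and 3, against 19.6, 21.9 and 19.5 FPKM in control 1, 2 and 3. The groups did not overlap (log2 fold change -0.86 ± 0.23 SE, adjusted p = 0.0579, limma), and St6gal1 passed with upper-quartile (0.0291) or median-of-ratios (0.0300) scaling and without DSS 1 (0.00953, the lowest of 15 settings). Its highest DSS value was in DSS 1, the sample with the highest sum of B and plasma cell markers (2639 FPKM). Every control had more St6gal1 than DSS 1, with sums of 523 to 731 FPKM. DSS 2 had less St6gal1 than DSS 3, with a sum of 545 against 131 FPKM. A relation between these levels was not tested. St6galnac6, which adds sialic acid to GlcNAc or GalNAc of already sialylated chains, had the highest mean over the 6 samples of all 82 enzymes, although St3gal4 exceeded it in control 2 and control 3. It had 372, 207 and 299 FPKM in DSS 1, 2 and 3 and 312, 327 and 319 FPKM in control 1, 2 and 3, with a 95% interval of the log2 fold change from -0.67 to 0.34. St6galnac6 made up 92.6% to 95.4% of the summed FPKM of the St6galnac genes in every sample. St6galnac2 had 10.2, 10.4 and 16.1 FPKM in DSS 1, 2 and 3 and 12.5, 18.5 and 17.0 FPKM in control colon, and St6galnac4 had 7.39, 1.49 and 3.53 FPKM in DSS 1, 2 and 3 and 5.42, 6.89 and 8.24 FPKM in control colon. St6galnac1, the sialyl-Tn synthase, was listed at 0 in all samples, and because it has a near-identical pseudogene copy this does not show that it was absent.

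Among fucosyltransferases Fut9 fell. Fut9, which makes the Lewis x structure, had 0.390, 0.0178 and 0.0439 FPKM in DSS 1, 2 and 3, against 1.11, 2.65 and 2.23 FPKM in control 1, 2 and 3. Every DSS sample was under every control, at 0.151 ± 0.208 FPKM (DSS) and 2.00 ± 0.796 FPKM (control) (log2 fold change -1.36 ± 0.25 SE, adjusted p = 0.0198, limma). The fold change understates a difference at such low levels, because 1 FPKM was added before the logarithm. Fut9 lost the call without DSS 3 and with the replicate number as a block (0.0509), with adjusted p between 0.0111 and 0.0784 over 12 settings, and without any control too few samples reached 1 FPKM for a test. Fut9 lies on chromosome 4, 25609332 to 25800244, minus strand.

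Fut2, the alpha1-2 fucosyltransferase that makes the H antigen of gut epithelium, had 59.8, 60.2 and 92.4 FPKM in DSS 1, 2 and 3 and 61.5, 32.9 and 62.7 FPKM in control colon, with overlap (95% interval of the log2 fold change -0.23 to 1.14). Fut8, which fucosylates the core of N-glycans, had 43.1, 37.9 and 46.2 FPKM in DSS 1, 2 and 3 and 32.1, 38.3 and 44.4 FPKM in control colon, and its 95% interval ran from -0.24 to 0.54. Fut4, the alpha1-3 enzyme of leukocytes and epithelium, had 29.3, 8.002 and 9.75 FPKM in DSS 1, 2 and 3 and 19.0, 24.6 and 24.6 FPKM in control 1, 2 and 3, so DSS 1 lay above and the other DSS samples below every control. Fut4 passed without DSS 1 (adjusted p = 0.00784, in a range up to 0.5998 over 15 settings, limma). Fut11 was at 4.51 to 5.02 FPKM in DSS and 3.44 to 4.66 FPKM in control colon. Fut7, which completes selectin ligands on leukocytes, was at 0.382 FPKM in DSS 3 and listed at 0 in the other samples.

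Sulfotransferases for GlcNAc and galactose were low apart from Chst4, a GlcNAc 6-sulfotransferase known for its part in selectin ligands. Chst4 had 18.8, 14.2 and 20.8 FPKM in DSS 1, 2 and 3, against 51.6, 23.4 and 29.0 FPKM in control 1, 2 and 3. The groups did not overlap but the controls were spread wide (log2 fold change -0.85 ± 0.30 SE, adjusted p = 0.115, limma). Chst1, which sulfates galactose of keratan chains, was at 0.999 to 1.27 FPKM in DSS and 1.54 to 1.92 FPKM in control colon (adjusted p = 0.165, limma). Among the chondroitin enzymes Chst11, a GalNAc 4-sulfotransferase, was higher without overlap, at 3.14, 1.601 and 2.30 FPKM in DSS 1, 2 and 3, against 0.966, 0.927 and 0.513 FPKM in the control colons (a log2 fold change of 0.88 ± 0.22 SE, adjusted p = 0.0527, limma). Chst11 passed without trend and robust moderation (0.0497). Chst12, Chst14 and Chst15 were between 0.938 and 6.95 FPKM in all samples and overlapped between the groups.

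The other 23 members were too low to be tested. Galntl5, Gcnt7, St6galnac1 and Chst9 were listed at 0 in all samples. Fut10 reached 1.37 FPKM and Chst13 1.07 FPKM in their highest sample, and the others stayed under 1 FPKM in every sample. The highest value was 0.753 FPKM for Chst7, 0.688 for Fut1, 0.591 for Chst10, 0.522 for St6galnac3, 0.493 for Chst8 and 0.485 for Chst3. It was 0.431 FPKM for B3gnt4, 0.418 for B3galt1, 0.257 for Galnt13, 0.115 for Galnt14, 0.0806 for St6galnac5 and 0.0764 for St6gal2. The DSS and control values overlapped for each of these 12 genes. Galnt15 had 0.157, 0.269 and 0.258 FPKM in DSS 1, 2 and 3, against 0.952, 0.718 and 0.6999 FPKM in control colon, and was called lower where the filter was set at 0.1 FPKM or dropped. Chst2, a GlcNAc 6-sulfotransferase, had 0.441, 0.379 and 0.396 FPKM in DSS 1, 2 and 3, against 0.601, 0.697 and 0.819 FPKM in control colon. Chst5, at most 0.312 FPKM, was lower and Galnt9, at most 0.548 FPKM, was higher, both without overlap.

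Genes that supply or use these enzymes mostly did not pass either. Across all tested genes 8.9% passed, so counts in lists this short say little. None of 24 genes for nucleotide sugar and sulfate donors and none of 12 Golgi donor transporters was called (limma), with median log2 fold changes of 0.11 and 0.13 beside 0.13 over all genes. Gmds, which makes the GDP-fucose precursor, came nearest among the donors, with 235, 277 and 328 FPKM in DSS 1, 2 and 3, against 163, 188 and 188 FPKM in control colon (adjusted p = 0.0555, limma). Of 16 tested glycan-ending transferases outside the family, 1 rose and 1 fell, where 6.34% of all tested genes were higher and 2.56% lower. B4galnt1, the GM2 ganglioside synthase, had 13.3, 24.4 and 31.0 FPKM in DSS 1, 2 and 3, against 5.11, 6.22 and 7.25 FPKM in control 1, 2 and 3 (log2 fold change 1.66 ± 0.30 SE, adjusted p = 0.0182, limma). St8sia5, a sialyltransferase of gangliosides, had 0.0938 FPKM in DSS 1 and a listed 0 in DSS 2 and DSS 3, against 11.7, 11.8 and 18.0 FPKM in control 1, 2 and 3 (adjusted p = 0.000217, limma). DSS 1 was thus as low as the other DSS samples in St8sia5.

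The main carriers of these glycans did not pass. Muc2, the gel-forming mucin of goblet cells, had 210.4, 382 and 872 FPKM in DSS 1, 2 and 3 and 215, 135 and 209.6 FPKM in control 1, 2 and 3 (adjusted p = 0.177, limma). The membrane mucin Muc13 had 1009, 906 and 681 FPKM in DSS 1, 2 and 3 and 1646, 922 and 1305 FPKM in control colon, and none of the 4 tested mucins was called. Of 8 goblet cell markers Clca1 was called lower and Spink4 higher, and their summed level was 19652 to 24750 FPKM in DSS and 20363 to 22161 FPKM in control colon, with overlap. Among selectins and their carriers, Selp rose, and Cd34 fell with 13.9, 8.20 and 13.1 FPKM in DSS 1, 2 and 3, against 25.5, 27.6 and 22.6 FPKM in control colon (adjusted p = 0.0256, limma). Selp, the P-selectin of endothelium and platelets, had 9.38, 1.99 and 6.84 FPKM in DSS 1, 2 and 3, against 0.728, 0.498 and 0.470 FPKM in control colon (adjusted p = 0.0352, limma). Of 8 galectins Lgals9 rose, with 101, 135 and 94.1 FPKM in DSS 1, 2 and 3, against 45.8, 45.3 and 58.3 FPKM in control colon (adjusted p = 0.0144, limma). Lgals9 lost the call without control 1 or control 2 (adjusted p up to 0.075), and Selp and Cd34 lost it without any 1 control (up to 0.128 and 0.110) and without the filter on low values (0.0662 and 0.05005). Cd34 also lost it without DSS 3 (0.0698), and Selp could be tested in 12 of the 15 settings, not without a DSS sample. B4galnt1 lost it without DSS 2, DSS 3 or any control (up to 0.0804), while St8sia5 kept it in every setting that could be fitted.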

How the data were processed

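The labels' protocols name TRIZOL for RNA, poly(A) selection and a non-directional kit, so reads carry no strand. The submitters' processing notes list TopHat2 2.1.1 and mm10. The authors deposited FPKM values per gene, per the file headers; how these were computed, and on which annotation, is not given in the sources used here. Sample titles gave groups and replicate numbers. Of 24421 gene rows, the 12348 that reached 1 FPKM in 3 or more samples were fitted as log2(FPKM + 1) on group, unscaled, with limma 3.58.1 in R 4.3.3 (trend, robust, two-sided, Benjamini-Hochberg, threshold 0.05). The script was tested on simulated data. Values after ± are SDs (n = 3) unless marked SE. The rule for names took called enzymes, the 3 most abundant of each step, uncalled ones at least 2-fold apart without overlap, untested ones by their highest value, and pathway genes that were called or had the smallest p. Other names were chosen after their values were seen. The members, lists and tests were chosen with earlier results of these data known. Positions come from GENCODE vM21 (GRCm38, which mm10 names), where 81 of 82 members matched 1 gene. Exons of 28 members overlap another gene (bedtools 2.31.1), and 4 members have a copy of at least 200 bases at 95% identity (BLAST+ 2.17.0). RefSeq promoters were found for 63 members. Alternatives changed the pseudocount, filter, scaling, moderation, replicate block and samples. Some genes of the pathway lists are not reported here.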

Additional observations from a re-analysis of the deposited data

How the results depend on the processing

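St3gal4 was called in all 15 alternatives. The count of called enzymes stayed between 4 and 7 under other pseudocounts, filters, scalings and moderation, against 6, but was 16 without DSS 1, and leaving out samples in turn gave 1 to 16 for the enzymes and 250 to 1556 for all genes (1099 in full, 337 without DSS 3, 422, 250 and 276 without control 1, 2 and 3). Fits without a sample hold 5 samples, so calls can be lost for want of samples alone. The replicate numbers were not taken as pairs: the deviations of same-numbered samples correlated at 0.0818, 0.129 and 0.00308. With the replicate number as a block 5 enzymes and 895 genes were called: B3galt2 (adjusted p = 0.0675), Fut9 (0.0509) and St3gal1 (0.0551) lost the call and C1galt1c1 (0.0381) and B4galt4 (0.0404) gained it. Depth is unknown, so what depth limits cannot be stated.

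The sign of an enzyme's log2 fold change turned in 25 of 870 comparisons with an alternative, none of them a called value. Upper-quartile and then median-of-ratios scaling gave -0.0814 and -0.0674 for B4galt3, -0.0404 and -0.0287 for Chst12, -0.0292 and -0.0202 for Chst14, -0.0196 and -0.00408 for Fut8 and -0.0133 and -0.000913 for Galnt18. Leaving out samples in turn gave log2 fold changes of -0.467 to 0.0782 for B3galt4, -0.107 to 0.0714 for B3galt6, -0.116 to 0.239 for B4galt3, -0.197 to 0.273 for C1galt1, -0.145 to 0.398 for Chst12, -0.0139 to 0.191 for Galnt18, -0.123 to 0.0103 for Gcnt2, -0.816 to 0.307 for St3gal3 and -0.36 to 0.0613 for St6galnac6. The cause was not tested.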
